A study of Mus musculus with 13 samples.

Results

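The matrix metalloproteinases (MMPs) and their tissue inhibitors (TIMPs) were described across the arrays of a study of resistance to anti-VEGF therapy. They were chosen by gene symbol as 7 MMP genes (Mmp2, Mmp3, Mmp9, Mmp12, Mmp13, Mmp14 and Mmp19) and 3 TIMP genes (Timp1, Timp2 and Timp3), which makes 10 of the 18193 genes with a probe set, all measured above the floor often enough to be tested. Gene expression was measured on 13 single-colour Affymetrix mouse arrays. The RNA came from mouse cells sorted on CD31, an endothelial surface protein, out of tumors that the human ovarian cancer cell line SKOV3ip1 had formed in female athymic nude mice, which lack most T cells. The resistant group held 4 arrays of tumors that grew again under B20, an antibody against VEGF-A, the sensitive group 4 arrays of tumors that responded to B20, and the control group 5 arrays. The labels call the third group only control, and the study's methods describe its treatment as control IgG. Sensitive and resistant tumors were told apart by bioluminescence of the tumor cells and collected at different times of treatment, so response and time under treatment cannot be told apart. The sources used here give no age for the mice, and the labels number the arrays of each group as biological replicates without tying them to animals, so p-values measure the spread between arrays.

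MMPs are zinc-dependent proteases that are made as inactive proforms and cut the proteins of the extracellular matrix, from the collagen of the basement membrane around vessels to the fibrillar collagen of the stroma. TIMPs bind to the active site of MMPs and block it, and the balance between both families governs the turnover of matrix, the release of growth factors held in it, among them VEGF-A, and the movement of endothelial sprouts and tumor cells. In tumors, stromal fibroblasts, macrophages and neutrophils make much of the MMP protein.

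Several arrays stood apart from their labels, which bears on every result. The 14 endothelial marker genes had a median level of 6.93 on control array 4 and 7.36 on control array 5, but of 2.83 to 4.21 on the other 11 arrays, where Pecam1, which encodes CD31 itself, was at 2.32 to 3.41 (all levels are log2 intensity after quantile normalization, with a floor at 2.01). The 13 macrophage markers had a median of 3.82, 4.19 and 4.92 on sensitive arrays 1, 2 and 3, against 8.06 to 10.2 on the other 10 arrays. The 8 mesothelial markers were highest on sensitive arrays 1 and 2 (8.31 and 7.88) and on resistant array 2 (7.23), and the B cell markers on sensitive array 3 (7.16, and 2.80 to 5.0 elsewhere). On sensitive array 4 the 9 fibroblast markers had their lowest median (3.44), and its control genes for RNA integrity differed by 5.95 between 3′ and 5′ probe sets, against 2.23 to 3.82 on the other arrays. Endothelial markers were therefore clearly raised on only 2 of the 13 arrays, control arrays 4 and 5. On these the macrophage markers were high too, with medians of 9.48 and 8.72, so they were also mixed samples. In such mixed samples, fewer cells of a type and less RNA per cell cannot be told apart.

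Promoter sequences are shown first because 3 members that lie near each other in the genome share motifs there, and their levels can be set beside them. RefSeq windows from 250 bases before to 50 bases after the annotated start (build GRCm38.p6) matched 7 of the 10 members by symbol, with 2 windows for Mmp12, and not Mmp2, Mmp9 or Mmp19. Mmp13, Mmp12 and Mmp3 lie in 1 cluster of MMP genes on chromosome 9, in the order Mmp13, Mmp12, Mmp1b, Mmp3, Mmp1a, Mmp10, Mmp8, Mmp27, Mmp20 and Mmp7. Their windows share a match to the AP-1 motif (TGAGTCA, or TGACTCA on the other strand), which Fos and Jun proteins bind, followed by a TATA box (TATAAA, or TTTATA on the other strand). The stretches from 90 bases before to 30 bases after the start are given 5′ to 3′ on the gene's strand, which is the plus strand for all 3, with both motifs in capitals (chr9:7272424-7272543 for Mmp13, chr9:7347284-7347403 for the second start of Mmp12 and chr9:7445732-7445851 for Mmp3).
Mmp13: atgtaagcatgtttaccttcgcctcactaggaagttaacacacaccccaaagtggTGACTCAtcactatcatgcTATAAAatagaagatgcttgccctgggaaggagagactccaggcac
Mmp12: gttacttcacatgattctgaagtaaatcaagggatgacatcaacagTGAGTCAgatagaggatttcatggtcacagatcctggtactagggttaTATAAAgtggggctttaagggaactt
Mmp3: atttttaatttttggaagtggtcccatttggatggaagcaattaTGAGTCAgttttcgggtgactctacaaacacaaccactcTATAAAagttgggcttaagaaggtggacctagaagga

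The AP-1 match began 35 bases before the start in Mmp13, 44 bases before it in Mmp12 and 46 bases before it in Mmp3, and the TATA box 16 bases before, 4 bases after and 7 bases before the start. The motifs did not overlap. Of all 32851 promoter windows, 5.2% held the AP-1 motif, 13.6% the TATA box and 0.941% both. The first window of Mmp12 and those of the other 4 genes held neither. The windows of Mmp14, Timp1, Timp2 and Timp3 carried the GC box (GGGCGG, or CCGCCC on the other strand), which factors of the Sp family bind, and which no window of Mmp13, Mmp12 or Mmp3 held. It occurred in 35.7% of all windows. It is shown in capitals over the same stretch (chr14:54431508-54431627 on the plus strand for Mmp14, chrX:20870076-20870195 on the plus strand for Timp1, chr11:118355382-118355501 on the minus strand for Timp2 and chr10:86300322-86300441 on the plus strand for Timp3).
Mmp14: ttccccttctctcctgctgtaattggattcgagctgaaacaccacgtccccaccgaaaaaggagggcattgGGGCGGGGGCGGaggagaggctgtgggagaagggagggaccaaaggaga
Timp1: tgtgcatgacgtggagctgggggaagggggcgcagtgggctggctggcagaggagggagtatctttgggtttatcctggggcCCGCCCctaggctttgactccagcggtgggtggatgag
Timp2: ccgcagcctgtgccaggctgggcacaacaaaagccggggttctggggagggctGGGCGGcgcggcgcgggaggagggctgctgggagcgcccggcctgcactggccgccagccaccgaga
Timp3: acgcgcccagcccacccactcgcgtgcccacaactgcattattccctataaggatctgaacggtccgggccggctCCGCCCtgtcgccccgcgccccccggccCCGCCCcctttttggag

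The 2 GC boxes of Mmp14 lie directly beside each other without overlapping. A match to the ETS motif (AGGAAG, or CTTCCT on the other strand) occurred in 6 of the 7 members with a window, all but Timp2, and in 35.4% of all windows. The ETS motif overlapped none of the other 3 in these windows. A match describes the letters in the window and is not a shown binding site.

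**Figure D1:**
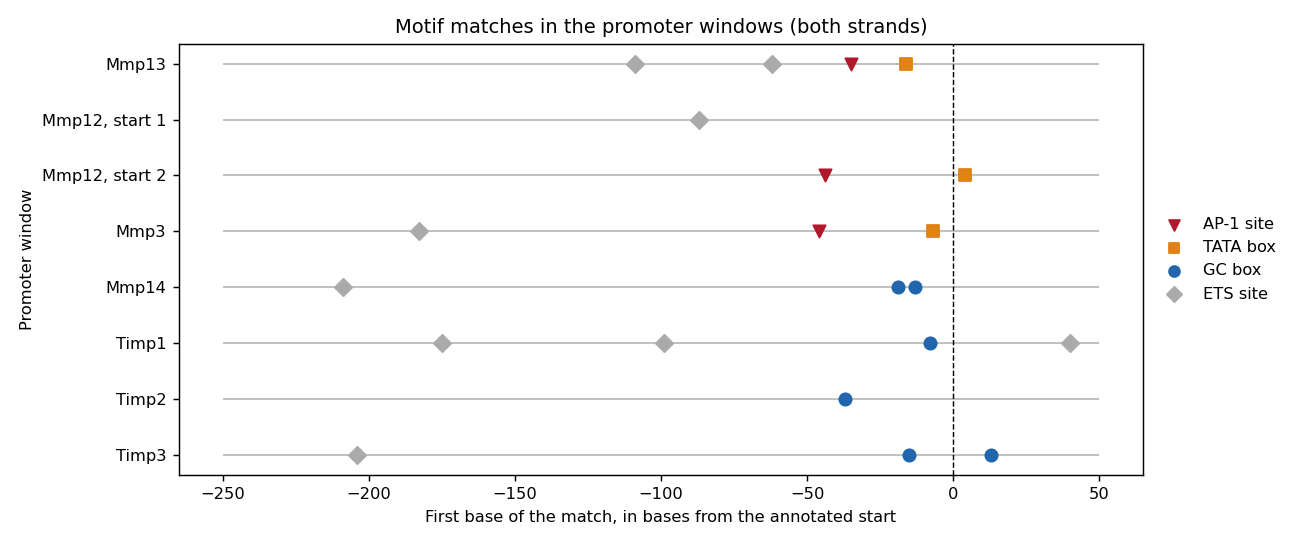
Position of motif matches on either strand in the 8 promoter windows of 7 members (horizontal axis: first base of the match in bases from the annotated start, dashed line at the start; 1 row per window, 2 for Mmp12). The AP-1 site and the TATA box appear only in the windows of Mmp13, Mmp3 and the second start of Mmp12, and the GC box only in those of Mmp14, Timp1, Timp2 and Timp3.

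No member passed the test between any groups. The test was limma with Benjamini-Hochberg adjustment over all 15370 genes tested, with a call at an adjusted p under 0.05, and it called 0 of 10 members in each of the 3 comparisons, as it called 0% of all genes. The plain two-sample form of the methods' test on the same values and genes, without the random variance model and the filters that the methods name, also called 0 genes after adjustment. Before adjustment, a p under 0.05 was reached between resistant and sensitive arrays by 3 of 10 members (Mmp13, Mmp12 and Timp2, each with the higher mean in resistant arrays) and by 7.07% of all genes, 4.54% with the higher mean in resistant arrays. Between sensitive and control arrays it was reached by 4 of 10 (Mmp3, Mmp13, Mmp9 and Mmp12, each with the lower mean in sensitive arrays) and by 11.9% of all genes, 6.58% with the lower mean in sensitive arrays. Between resistant and control arrays it was reached by 1 of 10 (Mmp3, with the lower mean in resistant arrays) and by 2.51% of all genes, 1.53% with the lower mean in resistant arrays. The values of the groups did not overlap for 0, 1 and 0 members in these 3 comparisons, in that order, against 1.87%, 3.03% and 2.71% of all genes.

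The signs of the differences were mostly shared, but depended on single sensitive arrays and were not tested as a group. The mean of resistant arrays lay above that of sensitive arrays for 10 of 10 members (median log2 difference 0.70, against -0.07 over all genes tested, of which 42.1% were positive). It was 7 of 10 without sensitive array 3, 8 of 10 without sensitive array 4, 6 of 8 with the floor at an intensity of 50 and 6 of 10 without sensitive arrays 1, 2 and 3. The 13 macrophage markers were positive in 13 of 13 cases, and their part was not tested. The mean of sensitive arrays lay below that of control arrays for 9 of 10 (median -0.70, against 0.09 over all genes, of which 41.6% were negative), for 6 of 10 without sensitive array 3, for 7 of 10 without sensitive array 4, and for 10 of 10 in the values as deposited and after centring on medians, where the difference of Mmp2 was -0.44 and -0.56. Between resistant and control arrays 6 of 10 differences were positive (median 0.15, against 0.03). Centring the arrays on their medians moved the median of all genes to 0.04 between resistant and sensitive arrays and to -0.05 between sensitive and control arrays. The comparisons share arrays, so the sensitive arrays enter both of the first 2.

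**Figure D2:**
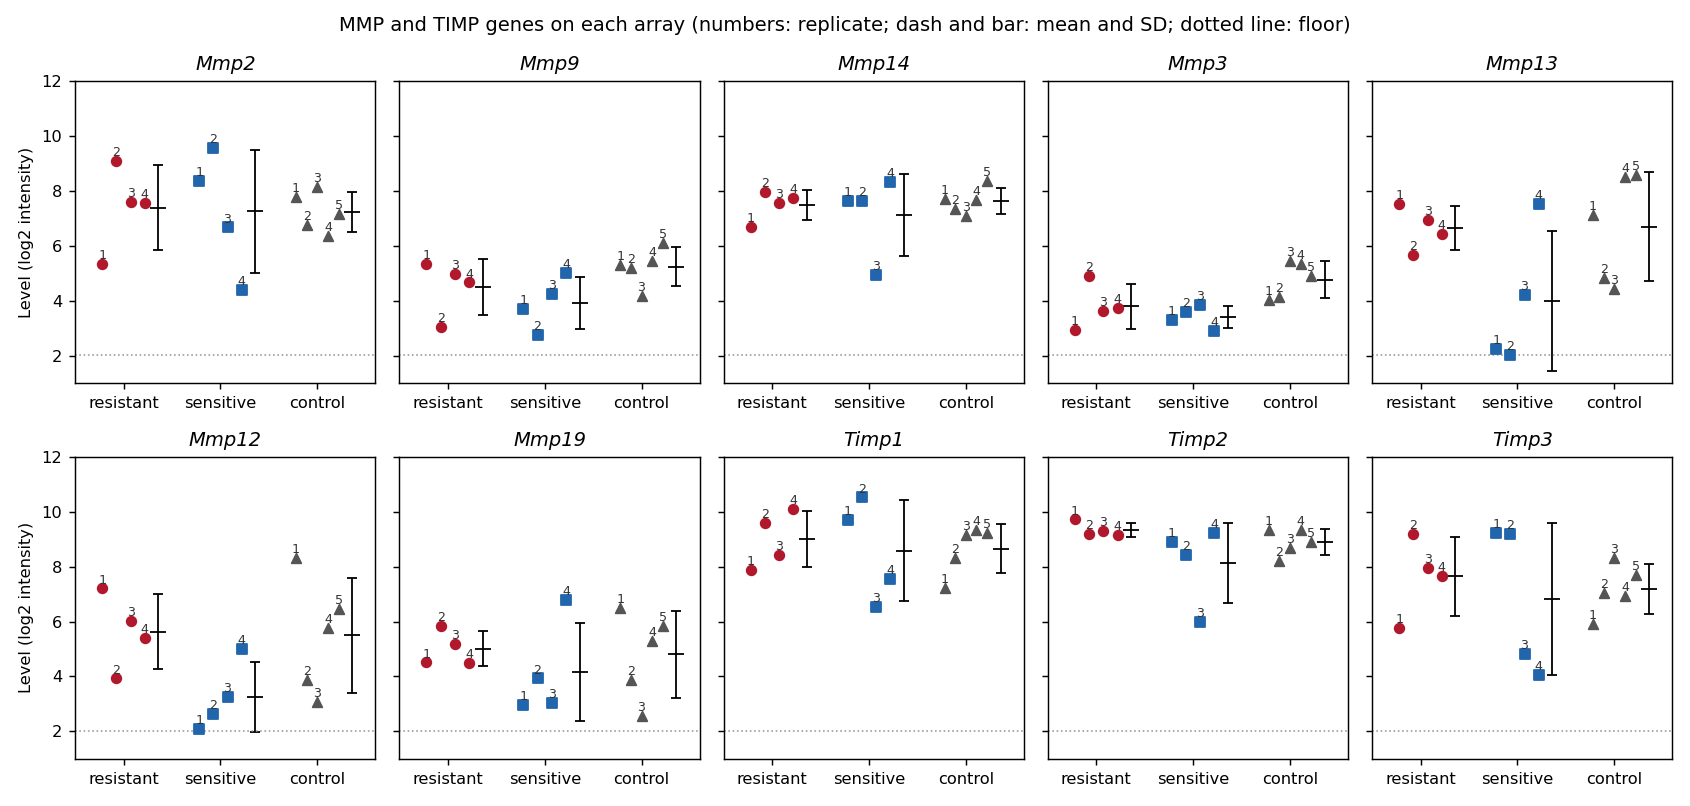
Level of each member (log2 intensity, vertical axis) on every array of the resistant, sensitive and control groups, with the replicate number at each point, the group mean and SD beside the points and the floor of 2.01 as a dotted line. Only Mmp3 has sensitive and control arrays that do not overlap, and Mmp13 spans the whole range from the floor to 7.53 within the sensitive group.

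**Figure D3:**
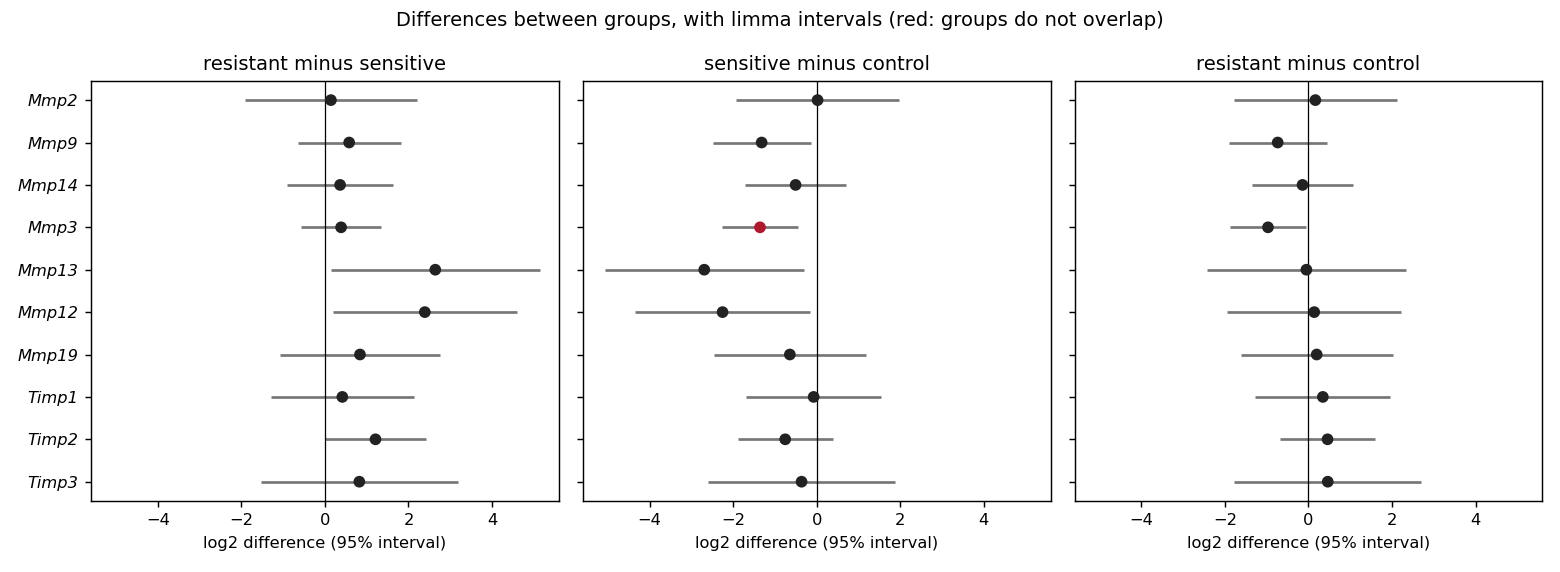
Difference of group means for each member (log2 units, horizontal axis; points, limma estimates; lines, 95% intervals) between resistant and sensitive, sensitive and control, and resistant and control arrays. Every resistant minus sensitive estimate is above 0, and the interval leaves out 0 for Mmp13, Mmp12 and Timp2 before adjustment for the number of genes.

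Mmp13, the collagenase that cuts fibrillar collagen and the main interstitial collagenase of rodents, had the widest difference among the members. It was at 7.53, 5.68, 6.96 and 6.42 on resistant arrays 1 to 4, at 2.26, 2.01, 4.22 and 7.53 on sensitive arrays 1 to 4, and at 7.12, 4.85, 4.43, 8.50 and 8.59 on control arrays 1 to 5. Sensitive array 2 was at the floor, while sensitive array 4 was as high as the highest resistant array, so the groups overlapped. The mean was 6.65 ± 0.79 in resistant arrays (SD, n = 4) and 4.01 ± 2.55 in sensitive arrays (SD, n = 4), a log2 difference of 2.64 (SE 1.17, 95% interval 0.13 to 5.15, limma adjusted p = 0.699). Against the control mean of 6.70 ± 1.97 (SD, n = 5), the sensitive arrays differed by -2.69 (SE 1.11, adjusted p = 0.374) and the resistant arrays by -0.05 (SE 1.11, adjusted p = 0.999946). The size of these differences rested on low values. With the floor at an intensity of 50 they were 0.53 between resistant and sensitive and -0.98 between sensitive and control arrays, and without sensitive arrays 1 and 2 they were 0.77 and -0.82. Mmp13 was highest on control arrays 4 and 5. Without these the sensitive minus control difference was -1.46 and the resistant minus control difference 1.18. The call depended on sensitive array 4. Without it the resistant minus sensitive difference was 3.82 (adjusted p = 0.0583), and the sensitive minus control difference was -3.87 with an adjusted p of 0.0333, the one setting in which a member was called, and 696 of the genes tested were called with it. With sensitive array 4 alone in the sensitive group, the resistant minus sensitive difference was -0.88 and the sensitive minus control difference 0.83.

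Mmp12, the macrophage elastase, which cuts elastin and can release angiostatin from plasminogen, followed the same arrays. It was at 7.20, 3.93, 6.02 and 5.39 on resistant arrays 1 to 4, at 2.08, 2.62, 3.26 and 5.02 on sensitive arrays 1 to 4, and at 8.30, 3.89, 3.06, 5.76 and 6.47 on control arrays 1 to 5. Sensitive arrays 1 and 2 were below every other array, and sensitive arrays 3 and 4 lay within the range of the other groups. The log2 difference was 2.39 between resistant and sensitive arrays (SE 1.02, 95% interval 0.20 to 4.59, limma adjusted p = 0.682), -2.25 between sensitive and control arrays (SE 0.97, adjusted p = 0.392) and 0.14 between resistant and control arrays (SE 0.97, adjusted p = 0.999946). With the floor at an intensity of 50, the first of these was 0.48 and the second -0.72. The levels of resistant and control arrays, next to each other in the order, did not differ beyond their spread.

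Mmp13 and Mmp12 varied with the macrophage markers. Over the 13 arrays, Mmp13 had a Pearson's r of 0.88 with the median of the macrophage list (Spearman's rho 0.81), and Mmp12 one of 0.79 (rho 0.84). Without sensitive arrays 1 and 2, the 2 farthest in the level of that list, r was 0.70 for Mmp13 and 0.67 for Mmp12. The points share the scaling of the arrays and the cell makeup of each sort, and the coefficients are descriptions. The macrophage list itself had a median difference of 3.39 between resistant and sensitive arrays, with 12 of its 13 genes at an unadjusted p under 0.05, and of -2.97 between sensitive and control arrays. Its summed level was 13.1 to 14.3 in resistant, 10.1 to 14.2 in sensitive and 13.2 to 14.1 in control arrays, and at most 1 of its 13 genes was at the floor on any array. The parts of the macrophage and endothelial lists in the differences of Mmp13 and Mmp12 were not tested.

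**Figure D4:**
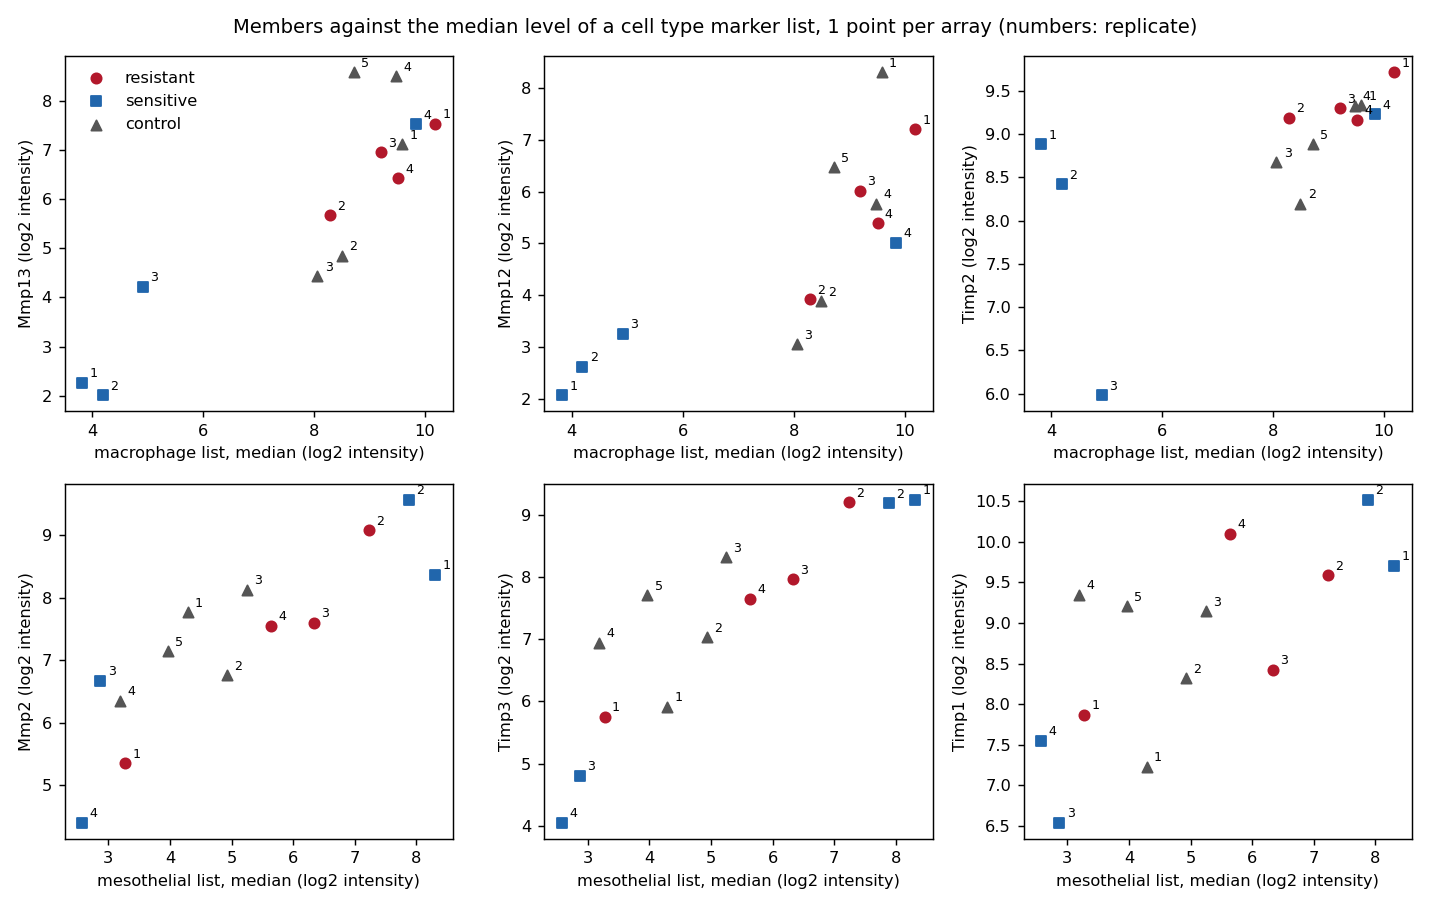
Level of 6 members (log2 intensity, vertical axes) against the median level of the macrophage list (upper row) or the mesothelial list (lower row) on the same array (log2 intensity, horizontal axes), with 1 point per array, its replicate number beside it and colours for resistant, sensitive and control arrays. Sensitive arrays 1 to 3 sit at macrophage medians of 3.82 to 4.92, apart from all other arrays, and sensitive arrays 1 and 2 at the mesothelial medians of 8.31 and 7.88.

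Mmp9, or gelatinase B, cuts denatured collagen and the type of collagen found in basement membranes. Over 13 arrays it had an r of -0.72 with the mesothelial list and of 0.69 with the macrophage list. Without sensitive arrays 1 and 2, the 2 farthest in the level of either list, these were -0.55 and 0.43. It was at 5.36, 3.04, 4.98 and 4.67 on resistant arrays 1 to 4, at 3.70, 2.77, 4.24 and 5.01 on sensitive arrays 1 to 4, and at 5.29, 5.21, 4.16, 5.46 and 6.12 on control arrays 1 to 5. Sensitive array 2 and resistant array 2 were the lowest of all, and the 3 groups overlapped. Sensitive arrays differed from control arrays by -1.32 (SE 0.55, 95% interval -2.49 to -0.15, limma adjusted p = 0.375), resistant from sensitive arrays by 0.58 (SE 0.58, adjusted p = 0.815; 0.19 without sensitive array 2 and 1.07 without resistant array 2) and resistant from control arrays by -0.74 (SE 0.55, adjusted p = 0.999946). Its second probe set followed the first (r = 0.87 over 13 arrays), with differences of 0.37, -0.49 and -0.12 in the same order of resistant versus sensitive, sensitive versus control and resistant versus control. The neutrophil list, whose cells are a known source of Mmp9 protein, had a summed level of 7.55 to 8.81 in resistant, 6.96 to 8.39 in sensitive and 8.81 to 9.50 in control arrays, with at most 1 of the 6 genes measured of 8 at the floor. The r of this list with Mmp9 was 0.47 (rho 0.34). It was 0.21 without control arrays 1 and 5, the 2 farthest in the level of the list. The part of the neutrophil list in these values was not tested.

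Mmp3, or stromelysin 1, which cuts proteoglycans and fibronectin and activates other pro-MMPs, was the one member whose groups separated. It was at 2.93, 4.90, 3.62 and 3.75 on resistant arrays 1 to 4, at 3.31, 3.59, 3.85 and 2.89 on sensitive arrays 1 to 4, and at 4.02, 4.14, 5.45, 5.34 and 4.89 on control arrays 1 to 5. Every sensitive array was below every control array, and of the resistant arrays only array 2 reached the control range. The resistant mean of 3.80 ± 0.82 (SD, n = 4) and the sensitive mean of 3.41 ± 0.41 (SD, n = 4) stood against a control mean of 4.77 ± 0.66 (SD, n = 5). The log2 difference was -1.36 between sensitive and control arrays (SE 0.42, 95% interval -2.27 to -0.45, limma adjusted p = 0.283), -0.97 between resistant and control arrays (SE 0.42, adjusted p = 0.999946) and 0.39 between resistant and sensitive arrays (SE 0.45, adjusted p = 0.834). The sensitive and control arrays stayed apart in the values as deposited (2.80 to 3.88 in sensitive and 4.09 to 5.58 in control arrays) and after centring on medians. Mmp3 followed none of the marker lists closely. Its highest r over 13 arrays was 0.47 with the endothelial list. That r was -0.23 without control arrays 4 and 5, the 2 farthest in the level of that list. The r of Mmp3 with the macrophage list was 0.12. Although it neighbours Mmp12 and Mmp13 and shares the AP-1 and TATA matches with them, its r was -0.05 with Mmp12 and 0.17 with Mmp13.

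Mmp2, or gelatinase A, which stromal cells make and which Mmp14 activates at the cell surface, differed little between group means and much between arrays. It was at 5.35, 9.08, 7.60 and 7.55 on resistant arrays 1 to 4, at 8.37, 9.57, 6.67 and 4.39 on sensitive arrays 1 to 4, and at 7.77, 6.76, 8.13, 6.35 and 7.14 on control arrays 1 to 5. The highest and the lowest array were both sensitive. The resistant minus sensitive difference was 0.14 (SE 0.96, 95% interval -1.91 to 2.19, limma adjusted p = 0.973), the sensitive minus control difference 0.02 (SE 0.91, adjusted p = 0.994) and the resistant minus control difference 0.16 (SE 0.91, adjusted p = 0.999946). Its SD of 1.43 over all arrays was larger than that of 96.3% of the genes tested. Over the 13 arrays its r was 0.88 with the fibroblast list and 0.85 with the mesothelial list, and -0.54 with the macrophage list. Without the 2 arrays farthest in the level of each list, these were 0.76, 0.83 and -0.25. The second probe set closely followed the first (r = 0.97), with differences of 0.43, -0.40 and 0.03 in the same 3 comparisons.

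Mmp14, the membrane-bound protease that activates pro-Mmp2, ran from 6.69 to 8.36 on 12 of the 13 arrays. It was at 6.69, 7.97, 7.55 and 7.74 on resistant arrays 1 to 4, at 7.62, 7.62, 4.93 and 8.32 on sensitive arrays 1 to 4, and at 7.70, 7.35, 7.08, 7.66 and 8.36 on control arrays 1 to 5. Sensitive array 3 was the one array below 6.69. The resistant minus sensitive difference was 0.36 (SE 0.59, limma adjusted p = 0.877), and -0.37 without sensitive array 3. The sensitive minus control difference was -0.51 (SE 0.56, adjusted p = 0.678) and the resistant minus control difference -0.14 (SE 0.56, adjusted p = 0.999946). Its other 2 probe sets had an r of 0.64 and 0.49 with the main one, and neither reached an unadjusted p under 0.05.

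Mmp19, a protease of basement membrane proteins, was at 4.51, 5.83, 5.19 and 4.50 on resistant arrays 1 to 4, at 2.95, 3.93, 3.02 and 6.77 on sensitive arrays 1 to 4, and at 6.48, 3.89, 2.56, 5.30 and 5.83 on control arrays 1 to 5. Sensitive array 4 was the highest of all arrays and control array 3 the lowest, so the groups overlapped throughout. The resistant minus sensitive difference was 0.84 (SE 0.89, limma adjusted p = 0.823), the sensitive minus control difference -0.64 (SE 0.85, adjusted p = 0.728) and the resistant minus control difference 0.20 (SE 0.85, adjusted p = 0.999946). Without sensitive array 4 the resistant minus sensitive difference was 1.71. Its r with the macrophage list was 0.65 over 13 arrays. The second probe set had an r of 0.74 with the main one and differences of 0.37 between resistant and sensitive, -0.93 between sensitive and control and -0.55 between resistant and control arrays.

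Among the inhibitors, Timp2, which blocks MMPs and also bridges Mmp14 and pro-Mmp2 during activation, was the most even in resistant arrays. It was at 9.72, 9.19, 9.30 and 9.17 on resistant arrays 1 to 4, at 8.89, 8.42, 5.99 and 9.23 on sensitive arrays 1 to 4, and at 9.34, 8.20, 8.68, 9.33 and 8.89 on control arrays 1 to 5. Of the sensitive arrays only array 4 reached the resistant range, and array 3 was far below all others. The mean was 9.34 ± 0.26 in resistant arrays (SD, n = 4) and 8.13 ± 1.47 in sensitive arrays (SD, n = 4), a log2 difference of 1.21 (SE 0.56, 95% interval 0.01 to 2.41, limma adjusted p = 0.703), which was 0.50 without sensitive array 3. The sensitive minus control difference was -0.75 (SE 0.53, adjusted p = 0.530), and -0.039 without sensitive array 3, and the resistant minus control difference 0.46 (SE 0.53, adjusted p = 0.999946).

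Timp2 had 6 probe sets, of which 5 were tested in a fit over 27388 probe sets. The resistant minus sensitive difference was positive for all 5, at 0.80 to 1.57, and so was the resistant minus control difference, at 0.46 to 1.45. The sensitive minus control difference had both signs, -0.75, -0.63 and -0.05 for 3 probe sets and 0.19 and 0.33 for the other 2. The sixth was above the floor on 1 array only. Timp2 had an r of 0.61 with the macrophage list over 13 arrays (rho 0.78). It was 0.95 without sensitive arrays 1 and 2, the 2 farthest in the level of that list. That value still includes sensitive array 3, which was low in both Timp2 and the list.

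Timp3, the inhibitor that stays bound to the matrix and also blocks VEGF from binding to its main endothelial receptor, was at 5.76, 9.20, 7.96 and 7.65 on resistant arrays 1 to 4, at 9.24, 9.18, 4.80 and 4.05 on sensitive arrays 1 to 4, and at 5.91, 7.03, 8.31, 6.94 and 7.71 on control arrays 1 to 5. The sensitive group split into 2 high and 2 low arrays, beyond both ends of the control range. The resistant minus sensitive difference was 0.82 (SE 1.10, limma adjusted p = 0.855), and it was -0.10 without sensitive array 4. The sensitive minus control difference was -0.36 (SE 1.04, adjusted p = 0.883) and the resistant minus control difference 0.46 (SE 1.04, adjusted p = 0.999946). Without sensitive arrays 1 and 2, the 2 high ones, the differences of Timp3 were 3.22 between resistant and sensitive and -2.75 between sensitive and control arrays. Of its 4 probe sets, 3 varied together (r of 0.91 and 0.98 with the main one), though 1 of them had a resistant minus control difference of -0.33. The fourth, near the floor at 2.01 to 3.44, had a resistant minus sensitive difference of -0.16.

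Timp1, the secreted inhibitor that inflammatory and growth signals induce, was at 7.87, 9.59, 8.43 and 10.1 on resistant arrays 1 to 4, at 9.70, 10.5, 6.54 and 7.55 on sensitive arrays 1 to 4, and at 7.23, 8.32, 9.15, 9.35 and 9.21 on control arrays 1 to 5. Here too sensitive arrays 1 and 2 were high and 3 and 4 low. The resistant minus sensitive difference was 0.42 (SE 0.80, limma adjusted p = 0.891), the sensitive minus control difference -0.07 (SE 0.75, adjusted p = 0.973) and the resistant minus control difference 0.34 (SE 0.75, adjusted p = 0.999946). Without sensitive arrays 1 and 2 the first of these was 1.95 and the second -1.61.

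Among the stromal marker lists, Timp3 and Timp1 varied most closely with the mesothelial list. Over 13 arrays the r of Timp3 was 0.89 with the mesothelial, 0.78 with the mural and 0.71 with the fibroblast list, and -0.39 with the macrophage list. The r of Timp1 was 0.70 with the mesothelial, 0.65 with the mural, 0.37 with the fibroblast and -0.24 with the macrophage list. Without the 2 arrays farthest in the level of each list, the r of Timp3 was 0.86, 0.51, 0.45 and 0.06 in that order. The r of Timp1 was then 0.58, 0.35, 0.17 and 0.34. The mesothelial list had a summed level of 6.50 to 10.4 in resistant, 6.15 to 11.6 in sensitive and 6.50 to 9.14 in control arrays, with at most 1 of its 8 genes at the floor. The fibroblast list had one of 10.3 to 13.7, 7.66 to 13.4 and 11.4 to 12.5 in the same groups, with none of its 9 genes at the floor. The 6 mural markers had one of 6.85 to 9.27, 6.29 to 9.62 and 7.52 to 8.54, with at most 2 at the floor. Their part in the levels of Mmp2, Timp1 and Timp3 was not tested.

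The members fell into sets by their variation over the 13 arrays. Mmp13, Mmp12 and Mmp9 varied together (r of 0.85 for Mmp13 with Mmp12, 0.81 for Mmp9 with Mmp13 and 0.75 for Mmp9 with Mmp12), and Mmp19 had an r of 0.73 with Mmp13 and 0.70 with Mmp12. Mmp2, Timp3 and Timp1 formed another set (0.86 for Mmp2 with Timp3, 0.85 for Timp1 with Timp3 and 0.62 for Mmp2 with Timp1). Both gelatinases lay on opposite sides, with an r of -0.69 between Mmp2 and Mmp9 (rho -0.71). The protease Mmp14 and its partner Timp2 had an r of 0.76 but a rho of 0.28, and the r was 0.42 without sensitive array 3 and resistant array 1, the 2 farthest from the median of Mmp14. These coefficients share the arrays, their scaling and their cell makeup.

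**Figure D5:**
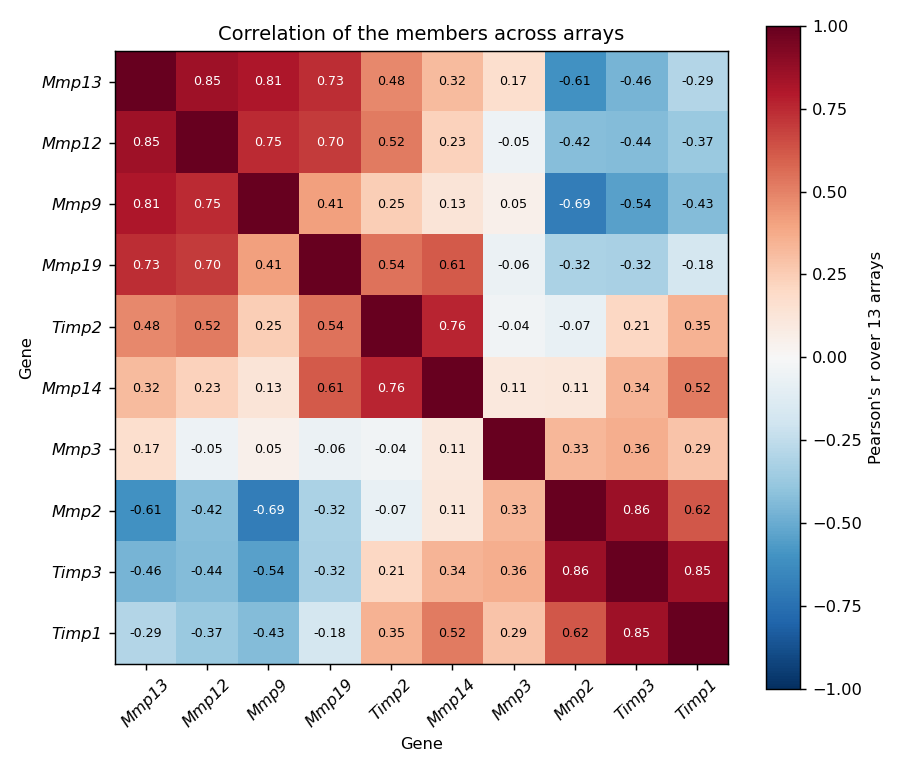
Pearson's r between the levels of each pair of members over the 13 arrays (red, positive; blue, negative; the value is printed in each cell, and the diagonal is each gene with itself). Mmp13, Mmp12, Mmp9 and Mmp19 form a positive block, as do Mmp2, Timp3 and Timp1, while the r of Mmp3 with any other member is at most 0.36.

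The genes most like each member were taken as the 3 with the highest r among the genes tested. For Mmp13 they were Il10 (0.96), Pde4b and Rgl1 (0.95 each), and for Mmp12 Aif1 (0.93), Hk3 (0.92) and Mrc1 (0.91), the last of which is in the macrophage list. For Mmp2 they were Serpinf1, Col6a2 and Serping1 (0.97 each), and for Timp3 Adamts1 (0.99), itself a matrix protease, Ptgis (0.97) and Bmp1 (0.96), the protease that trims procollagen. Mmp9 was most like Clcn7, Rapgef1 and Mat2b (0.91 to 0.92), Mmp19 like Sfmbt1, 4930486L24Rik and Spon1 (0.88 to 0.92), and Timp1 like Fam114a1, Trabd2b and Kcnk16 (0.92 to 0.94). The likeness rested on few arrays for Mmp14, whose nearest genes B4galt5, Abcg2 and Pttg1ip (0.90 to 0.92) came to 0.40 to 0.64 without the 2 farthest arrays, and for Timp2, whose nearest genes Cpne2, App and Hbegf (0.92 to 0.94) came to 0.45 to 0.80. Mmp3 had the weakest neighbours, Ncan (0.86), Mboat2 (0.81) and Bzw2 (0.80).

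Other genes of the pathway were counted in the same fit, and 0 members of any list passed after adjustment. Of 16 other MMPs, 11 had a probe set and 7 were tested. The resistant minus sensitive difference was positive for 1 of these 7 (median -0.15), against 42.1% of all genes. The sensitive minus control difference was positive for 5 of 7 (median 0.37), against 58.4% of all genes. Among them was Mmp8, the neutrophil collagenase of the same cluster on chromosome 9. It averaged 2.17 in resistant, 2.26 in sensitive and 2.83 in control arrays, near the floor, and the differences from control were -0.66 (SE 0.13, limma adjusted p = 0.999946) in resistant and -0.57 (SE 0.13, adjusted p = 0.189) in sensitive arrays, without overlap in either comparison. Mmp10, a stromelysin that also lies in the cluster, averaged 3.84 in sensitive and 3.05 in control arrays (difference 0.79, SE 0.30, adjusted p = 0.345), the opposite sign to Mmp3. Mmp1a and Mmp1b, on either side of Mmp3, were at the floor on all 13 arrays. Of the 3 other inhibitors, Timp4, Reck and A2m, none reached an unadjusted p under 0.05.

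Genes tied to pro-MMP activation, ADAM proteases and substrates were mostly positive between resistant and sensitive arrays. There 42.1% of all genes were positive, and 4.54% reached an unadjusted limma p under 0.05 with the higher mean in resistant arrays. The 6 genes tested of the pro-MMP activation list were Plau, Plaur, Plat, Furin, Bsg and Serpinb2, an inhibitor of plasminogen activators, so they were not all activators. All 6 had a positive resistant minus sensitive difference. Only Bsg, which induces MMPs in neighbouring cells, reached an unadjusted p under 0.05 (1.52, SE 0.67, limma adjusted p = 0.699). Of 12 ADAM and ADAMTS proteases, 9 were positive and 2 reached that p, Adam8 (2.80, SE 0.92, adjusted p = 0.543) and Adam9 (1.27, SE 0.52, adjusted p = 0.670), both of which cut proteins off the cell surface. Of 16 matrix substrates, 15 were positive, with the fibronectin gene Fn1 at 1.81 (SE 0.59, adjusted p = 0.534). Versican, encoded by Vcan, had a sensitive minus control difference of -1.93 (SE 0.57, adjusted p = 0.266).

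Of 13 regulators of MMP transcription, 11 were positive between resistant and sensitive arrays and 3 reached an unadjusted p under 0.05 with the higher mean in resistant arrays (4.54% of all genes). The cytokine genes Il1a and Osm, whose products induce MMPs in stromal cells, differed by 2.82 (SE 0.79, limma adjusted p = 0.449) and 2.74 (SE 0.86, adjusted p = 0.533), and Tnf by -1.97 between sensitive and control arrays (SE 0.61, adjusted p = 0.282). Of 6 cathepsins, lysosomal proteases that macrophages hold in quantity, 5 reached an unadjusted p under 0.05 with higher means in resistant than in sensitive arrays (4.54% of all genes), among them Ctsd (2.33, SE 0.65, adjusted p = 0.449) and Ctsb (1.66, SE 0.53, adjusted p = 0.533). Against control arrays 4 of 6 reached it with lower means in sensitive arrays (6.58% of all genes), with Ctsz at -2.49 (SE 0.64, adjusted p = 0.219). The macrophage list moved with these groups as it did with Mmp13 and Mmp12, and its part was not tested.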

How the data were processed

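The deposited values are on a log scale, taken as log2 from their range and from the hybridization controls, since the sources state neither log base nor scaling. Per the labels the authors used a standard Affymetrix protocol and MAS5, while the study's methods describe bead chips and other software. No counts or depth exist for arrays, and their number limits the precision. The 2%-trimmed linear means differed 1.73 times between arrays (19.4 to 33.5), so values were quantile normalized, with a floor at the 30th percentile (2.01). Of the deposited values, 91.1% were under an intensity of 100, the minimum that the methods set for a spot. The 45101 probe sets were named from the platform annotation (34958 with 1 symbol, 932 with several, 9211 unnamed), the probe set with the highest mean stood for its gene, and 15370 of 18193 genes above the floor on at least 4 arrays were tested in 1 fit of all groups (limma 3.58.1, R 4.3.3, two-sided, intensity trend). A plain Student t-test on the same values was an alternative; it lacks the random variance model and the gene filters of the methods' t-test. The fit was run on simulated data with genes drawn independently and the same spread in every group. The real groups differ in spread and cell makeup, so that run does not show how the fit behaves on these arrays. The text names all members, at most 2 genes of a list per comparison with an unadjusted limma p under 0.05, and 3 genes most like each member. The members and lists were chosen with earlier results of these data known.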

Additional observations from a re-analysis of the deposited data

How the results depend on the processing

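In 704 refits of 30 member differences under 29 settings, 631 kept their sign and their side of the threshold, 72 changed sign, and 1 became called. The members called numbered 0 under all settings, except 0 to 1 when single arrays were left out between sensitive and control (Mmp13, without sensitive array 4). Without sensitive array 4, 428 genes were called between resistant and sensitive and 696 between sensitive and control arrays, and under the other settings at most 34 (array weights, resistant and control arrays). Arrays with the same replicate number had an r of deviations of -0.43 to 0.53. Arrays with unlike numbers were not compared, so whether the numbers pair the arrays was not settled. The replicate block called 0 members in each comparison. Under that block, control array 5 carries no information, and the sensitive minus control difference was -0.000907 for Mmp2 and 0.067 for Timp1, and the resistant minus control difference 0.040 for Mmp14 and 0.42 for Mmp13. For each change of sign, the cause was not tested. Among differences that kept their sign, leaving out single arrays gave 0.19 to 1.07 for Mmp9, 0.021 to 0.68 for Mmp3, 0.43 to 1.71 for Mmp19 and 0.50 to 1.58 for Timp2 between resistant and sensitive arrays, -1.51 to -0.22 for Mmp19 and -1.12 to -0.039 for Timp2 between sensitive and control arrays, and -1.02 to -0.25 for Mmp9 between resistant and control arrays.

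Between resistant and sensitive arrays, leaving out single arrays gave -0.81 to 0.92 for Mmp2, -0.37 to 0.76 for Mmp14, -0.26 to 1.06 for Timp1 and -0.10 to 1.63 for Timp3. With the floor at an intensity of 50, which left Mmp3 and Mmp9 untested, the difference was -0.10 for Mmp2 and -0.24 for Mmp19. Without sensitive arrays 1 and 2 it was -0.12 for Mmp9. Without sensitive arrays 1, 2 and 3, with the lone array assumed to vary like the other groups, it was -0.50 for Mmp9, -0.84 for Mmp14, -0.88 for Mmp13 and -1.76 for Mmp19.

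Between sensitive and control arrays, leaving out single arrays gave -0.75 to 0.97 for Mmp2, -0.91 to 0.22 for Mmp14, -0.72 to 0.61 for Timp1 and -1.17 to 0.56 for Timp3. Mmp2 was at -0.44 in the values as deposited, -0.56 after centring on medians and -0.19 as the mean of its probe sets. The floor at an intensity of 50 gave 0.077 for Mmp19 and 0.25 for Timp3. Without control arrays 4 and 5 Mmp2 was at -0.30 and Timp1 at 0.35, and without sensitive arrays 1 and 2 Mmp2 was at -1.70 and Mmp19 at 0.085. Without sensitive arrays 1, 2 and 3 the values were -2.84 for Mmp2, 0.69 for Mmp14, 0.83 for Mmp13, 1.96 for Mmp19 and 0.35 for Timp2.

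Between resistant and control arrays, leaving out single arrays gave -0.40 to 0.85 for Mmp2, -0.30 to 0.12 for Mmp14, -0.62 to 0.42 for Mmp13, -0.47 to 0.84 for Mmp12, -0.37 to 0.61 for Mmp19, -0.025 to 0.72 for Timp1 and -0.058 to 1.09 for Timp3. Mmp12 was at -0.0044 after centring on medians and at -0.24 with the floor at an intensity of 50, which gave -0.16 for Mmp19, while the mean of its probe sets gave -0.18. Array weights gave -0.17 for Mmp12, -0.25 for Mmp19 and -0.17 for Timp1. Without control arrays 4 and 5 the values were -0.16 for Mmp2, 0.11 for Mmp14 and 1.18 for Mmp13.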
